A study of Arabidopsis thaliana with 6 samples.

Results

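AT4G39280, AT5G26830 and AT3G02760 are Arabidopsis thaliana genes for the aminoacyl-tRNA synthetases of phenylalanine (its alpha subunit), threonine and histidine, enzymes of the cytosol. Each was read by 1 probe set that names that gene alone, and these 3 genes were followed out of 13286 that had a probe set of their own. They had been picked from their values in these data, as genes whose transcripts dipped in light at low CO2 and rose at normal CO2. Their levels and steps are therefore described here without a test. The samples were whole rosettes of the starchless pgm mutant in the Col-0 background, 5 to 6 weeks old, and every group carried that mutation. There were 3 treatments of 4 hours, each with 2 biological replicates named A and B. Plants were kept in prolonged darkness at low CO2, in light with CO2 still low, or in light with CO2 at its normal level. The extraction protocol speaks of 4 harvests of 3 rosettes and of ground material of 15 rosettes, so each RNA came from pooled plants. Total RNA was labelled with biotin and hybridised to single-colour Affymetrix arrays, 6 in all. The sources used here do not state the CO2 concentrations.

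An aminoacyl-tRNA synthetase joins one amino acid to the tRNAs that carry it, and the charged tRNA then brings the amino acid to the ribosome. Plants make separate sets of these enzymes for the cytosol and for the organelles, all encoded in the nucleus, and some of the enzymes serve more than 1 compartment. The synthetases of phenylalanine, threonine and histidine belong to class II, one of a pair of unrelated structural families. The cytosolic phenylalanine enzyme is built of alpha and beta subunits, so AT4G39280 needs AT1G72550, the beta subunit gene, for a working enzyme. AT5G26830 is known to give both a cytosolic and a mitochondrial threonine enzyme through alternative start sites, so the word cytosolic covers only a share of its product. In leaves these enzymes supply protein synthesis, one of the large consumers of energy and of the carbon fixed by day.

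All 3 genes read highest at normal CO2 in light, at 1.81 to 2.06 times their level at low CO2 in light, and only the threonine gene was lower in light than in darkness at low CO2. For AT4G39280 the intensity was 148.1 (A) and 142 (B) in darkness, 168.7 and 138.1 in light at low CO2, then 316.4 and 316.5 at normal CO2. Both normal CO2 arrays stood above the other 4, which overlapped one another. For AT3G02760 the values were 112.4 and 112.9 in darkness, 115.7 and 119.4 in light at low CO2, then 204.4 and 221.9 at normal CO2. Here the 4 low CO2 arrays lay closer together, with the light arrays slightly above the dark ones. For AT5G26830 they were 100.1 and 101.2 in darkness, 88.6 and 73.2 in light at low CO2, then 155.9 and 158.5 at normal CO2. This gene had 3 levels that did not overlap, lowest at low CO2 in light. The pattern by which the genes were picked, a dip and then a rise, was thus present in AT5G26830 and absent from the darkness to light change of the other two.

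**Figure D1:**
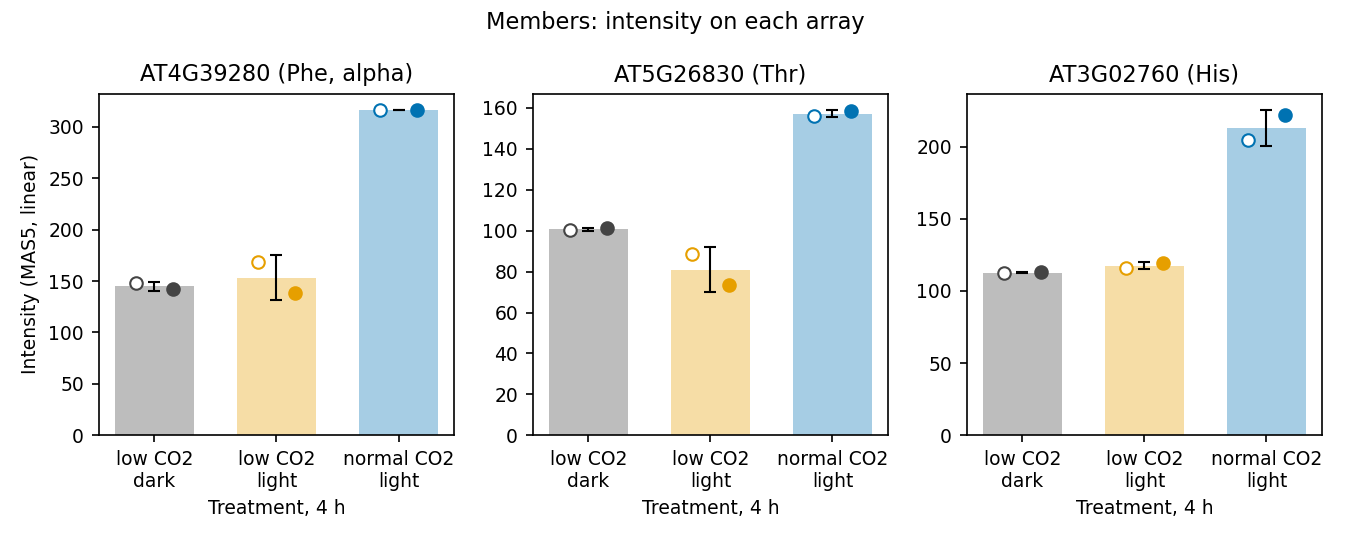
Intensity (linear scale from 0) of the 3 genes on each array by treatment, with replicate A open and replicate B filled; bars are group means and error bars the SD of 2 arrays. Normal CO2 in light stands highest in each panel (316, 157 and 213), and only AT5G26830 is lower in light than in darkness at low CO2 (80.9 against 100.7).

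The difference between normal and low CO2 in lit plants is named the CO2 step. It was 2.06-fold for AT4G39280, from a mean intensity of 153 ± 21.6 (SD, n = 2) to 316 ± 0.0707 (n = 2). The fold was 1.94 for AT5G26830, from 80.9 ± 10.9 to 157 ± 1.84, and 1.81 for AT3G02760, from 118 ± 2.62 to 213 ± 12.4. Log2 values here are of intensity + 7.3, a pseudocount at the 20th percentile that damps changes of dim probe sets. On that scale the steps were 1.02, 0.90 and 0.82. Each gene was higher within replicate A and within replicate B: by 0.88 and 1.16 for AT4G39280, 0.77 and 1.04 for AT5G26830, and 0.78 and 0.86 for AT3G02760. The replicates of AT5G26830 overlapped those of both other genes. Both replicates of AT4G39280 lay above both of AT3G02760, though narrowly (0.88 against 0.86). A full order of the 3 sizes of the CO2 step is therefore not firm. Among all 22746 probe sets tested, 8.4% were called higher in this step by limma at an adjusted p under 0.05. A larger log2 step than that of the 3 genes, in the same order, was seen in 5.32%, 6.88% and 8.41% of probe sets, so steps of this size were common on these arrays. The rule used this step, and nothing is read from the members' place in it.

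Between dark and lit plants at low CO2, a difference named the light step, the genes parted. AT5G26830 had a log2 difference of -0.30, made of -0.16 in A and -0.43 in B. Its lit arrays both lay below its dark arrays, as in 22.5% of all probe sets. AT4G39280 had 0.07, with 0.18 in A and -0.04 in B, so its replicates pointed in opposite directions. AT3G02760 had 0.06, with 0.04 and 0.08. Its lit arrays both lay above its dark arrays, as in 23.6% of all probe sets. In both replicates the threonine gene therefore lay below the other two. The light and CO2 steps share the arrays of low CO2 in light, so a low reading there lowers the one and raises the other.

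Normal CO2 in light against low CO2 in darkness does not use those shared arrays. Its log2 differences were 1.09 for AT4G39280 (1.06 in A, 1.12 in B), 0.88 for AT3G02760 (0.82 and 0.93) and 0.61 for AT5G26830 (0.60 and 0.61). The order was phenylalanine, histidine, threonine in both replicates, and no replicate of one gene reached that of the next. Seen from darkness, the phenylalanine gene had 2.18 times its dark level at normal CO2, the histidine gene 1.89 times and the threonine gene 1.56 times. In each gene both normal CO2 arrays exceeded both dark arrays, as in 31.8% of all probe sets. The members were chosen on the steps that make up this sum, so it too is a description.

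Over the 6 arrays the centred log2 profiles of AT4G39280 and AT3G02760 were the closest pair, with a root mean square distance of 0.14 and Pearson's r of 0.98. AT5G26830 lay 0.18 from AT3G02760 (r = 0.90) and 0.21 from AT4G39280 (r = 0.93). All 6 points come from the same arrays with the same scaling, and the normal CO2 pair sets most of each r, so these are descriptions with no p.

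The 5 named genes with profiles nearest to the mean of the 3 were AT1G61640 (distance 0.035, r = 0.998), AT3G44740 (0.056, r = 0.996), AT3G07910 (0.057, r = 0.995), BOB1 (0.058, r = 0.990) and AT1G18070 (0.060, r = 0.990). They were taken from 13433 named probe sets over 6 arrays. BOB1 encodes BOBBER1, a NudC-domain protein with chaperone activity. Its intensities were 92.7 and 98.2 in darkness, 101.1 and 83.3 in light at low CO2, then 165.1 and 190.3 at normal CO2. AT1G18070 read 213.9 and 188.8 in darkness, 207.2 and 195.7 in light at low CO2, then 383.1 and 383.3 at normal CO2. Both stayed level between darkness and light at low CO2 and stood higher on the normal CO2 arrays. AT1G61640 was dim throughout, between 13.5 and 35.4. Likeness of this kind was not rare: 4.64% of probe sets had an r of at least 0.95 with the mean profile.

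**Figure D2:**
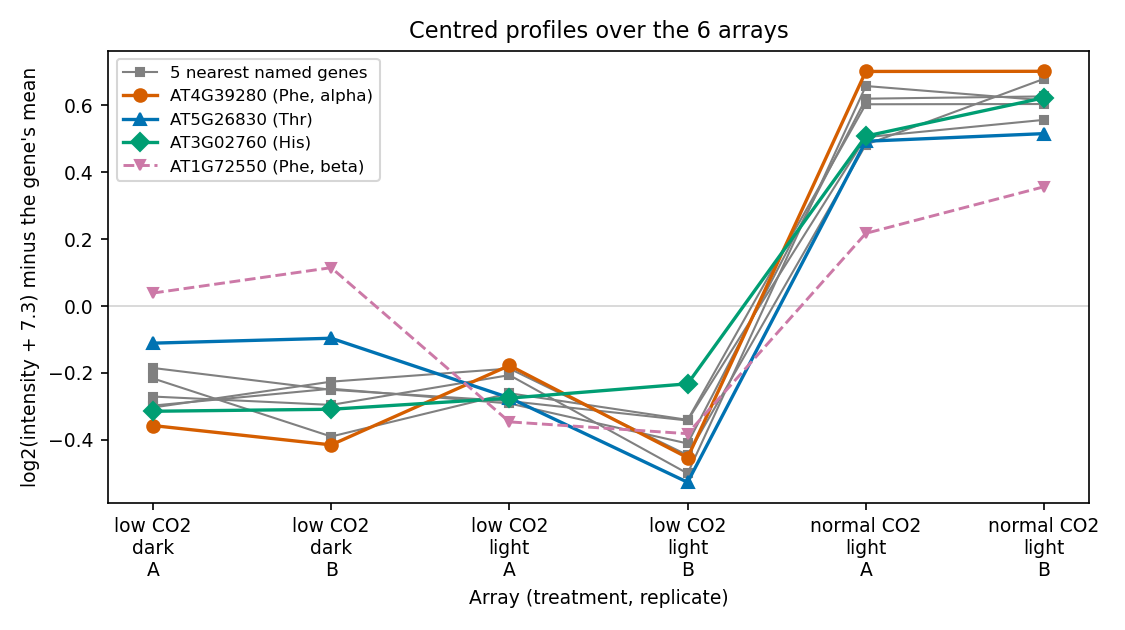
Each gene's log2(intensity + 7.3) minus its own mean (y axis) on the 6 arrays (x axis, lines only to guide the eye), for the 3 genes, the beta subunit gene AT1G72550 and, in grey, the 5 named genes nearest to their mean profile. Over the 4 low CO2 arrays AT3G02760 is flat, while AT5G26830 and AT1G72550 are lower in light than in darkness. AT4G39280 varies there without a shared direction (light step 0.18 in A and -0.04 in B).

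The gene for the partner subunit, AT1G72550, differed from AT4G39280 at low CO2. Its intensities were 262.9 and 277.5 in darkness, 199.6 and 194.6 in light at low CO2, then 298.5 and 329.5 at normal CO2. All 3 treatments were apart, and darkness stood closer to normal CO2 than to low CO2 in light. The light step of AT1G72550 was -0.44 ± 0.12 (SE, limma adjusted p = 0.157), short of the threshold, with -0.39 in A and -0.50 in B, where AT4G39280 had 0.07. In the CO2 step it rose by 0.65 ± 0.12 (adjusted p = 0.0224). Against darkness the beta subunit gene had 0.21 ± 0.12 at normal CO2 (adjusted p = 0.307) and the alpha subunit gene 1.09. Whether the subunit genes differ in their steps was not tested, since AT4G39280 was chosen on them.

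A list of 27 genes for cytosolic synthetases, those that also serve mitochondria included, had 17 with a probe set of their own, the 3 members and 14 others. Of the 14 others, 4 rose in the CO2 step and 0 fell, against 8.4% called higher and 6.2% called lower over all probe sets. They were AT1G66530 for arginine (log2 difference 0.81 ± 0.17, SE, limma adjusted p = 0.0259), AT3G04600 for tryptophan (0.77 ± 0.13, adjusted p = 0.0163), AT3G62120 for proline (0.68 ± 0.14, adjusted p = 0.0302) and AT1G72550. The arginine gene went from 83.9 and 82.4 at low CO2 in light to 135.7 and 169.3 at normal CO2. The tryptophan gene went from 86.3 and 91.1 to 155.7 and 158.1, and the proline gene from 378.7 and 415.6 to 618.7 and 659.3. In each of them both normal CO2 arrays stood above both low CO2 arrays in light, as they did in 10 of the 14 genes against 29.6% of all probe sets. The proline call ended with arrays shifted to a common median (adjusted p = 0.0589). Among probe sets with a mean intensity of at least 50, 5 of 12 other synthetases were called higher, against 1949 of 10201 probe sets. That is a larger share than over all probe sets. The count of 4 dropped to 1 (the tryptophan gene) when low CO2 in light A was left out. It was 0 without low CO2 in light B, normal CO2 in light A or normal CO2 in light B, with the changed genes of the whole array also at 0 in the last 2 cases.

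The other genes of the list did not pass in the CO2 step. AT4G10320 for isoleucine had 0.82 (limma adjusted p = 0.0566), as large as the arginine gene but with a larger SE (0.219 against 0.165). That SE draws on all 3 treatments, and the dark arrays of AT4G10320, which are not part of this step, read 213 and 315. In the CO2 step itself it had 0.71 in A and 0.93 in B, against 0.65 and 0.98 for the arginine gene. The isoleucine gene passed with the replicate letter as a block (adjusted p = 0.0192), with dim probe sets filtered out (0.0356), in a fit of 4 arrays (0.0393) and without either dark array (0.0395 and 0.0397). AT5G27470 for serine, AT1G09620 for leucine and AT5G26710 for glutamate had 0.51, 0.50 and 0.47 (adjusted p = 0.0915, 0.0620 and 0.139). The serine gene passed with the replicate letter as a block (adjusted p = 0.0481). AT3G56300 and AT5G38830, both for cysteine, had 0.37 and 0.19, and AT4G26870 for aspartate had 0.35. AT4G13780 for methionine, at 0.05, and ALATS for alanine, at -0.05, were nearly level. The methionine value turned to -0.03 with arrays shifted to a common median. AT1G17960, a second gene for threonine, had -0.36 and read only 3.8 to 14.4, near the pseudocount, where AT5G26830 read 73.2 to 158.5. The median of the 14 was 0.48, and 0.50 in A and in B alike, against -0.01 over all probe sets. This list had been looked at in these data before, so its shift is no independent support. On this log2 scale the 3 members had the largest values of the 17 by the way they were picked, but the margin was thin. AT3G02760 had 0.8193, AT4G10320 0.8187 and AT1G66530 0.8131. As a fold of means AT1G66530 (1.83) was above AT3G02760 (1.81). With quantile normalization AT4G10320 (0.86) was above AT3G02760 (0.80). With a pseudocount of 50 it had 0.73, above AT5G26830 (0.67) and AT3G02760 (0.65). By structural class, a split made after the values were seen, 2 of the 8 others of class I and 2 of the 6 of class II rose.

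**Figure D3:**
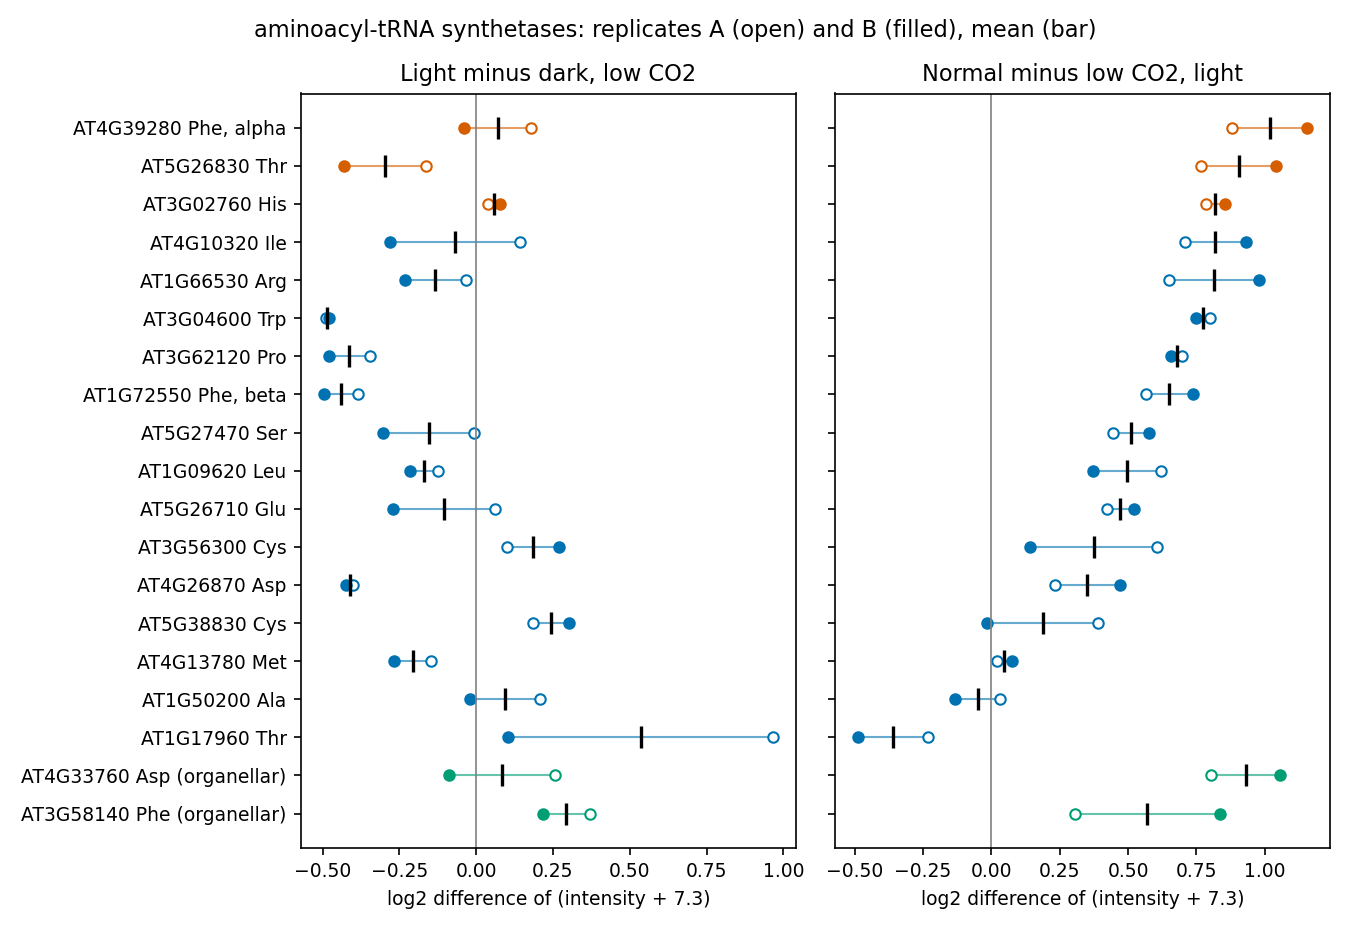
Differences of log2(intensity + 7.3) (x axis) in the light step (left) and the CO2 step (right) for 17 cytosolic and 2 organellar synthetase genes (y axis), members in orange, others in blue, organellar in green; open and filled points are replicates A and B and the black bar their mean. On the right, most cytosolic genes lie above 0 (12 of the 14 others); on the left, the lowest are tryptophan, phenylalanine beta, proline and aspartate, with AT5G26830 the one member clearly below 0.

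A dip at low CO2 in light was seen among the other synthetases too. Both arrays of low CO2 in light lay below both dark arrays and below both normal CO2 arrays in 6 of the 14 others and in 1 of the 3 members, against 9.23% of all probe sets. The 6 were the genes for arginine, aspartate, leucine, phenylalanine (beta), proline and tryptophan. AT3G04600 for tryptophan read 124.1 and 129.9 in darkness and 86.3 and 91.1 at low CO2 in light, a difference of -0.48 ± 0.13 (limma adjusted p = 0.143), and thus did not pass. AT3G62120 for proline had -0.41 (adjusted p = 0.228) and AT4G26870 for aspartate -0.41 (adjusted p = 0.187). By limma 0 of the 14 passed in the light step in either direction, against 1.04% of all probe sets. At an unadjusted p under 0.05 there were 4 of 14, each negative, against 16.5% of all probe sets in either direction. The median of the 14 was -0.14, made of -0.02 in A and -0.27 in B, so the replicates differed in this shift.

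At normal CO2 in light against darkness, the arginine gene AT1G66530 was the single one of the 14 to pass (0.68 ± 0.17, limma adjusted p = 0.0336), where 11.3% of all probe sets were called higher. Its call ended (0 of 14) with arrays shifted to a common median. It also ended when any one array of normal CO2 or of darkness was left out. The genes for tryptophan, proline and phenylalanine (beta) had 0.29, 0.26 and 0.21 in this comparison, with adjusted p of 0.181, 0.269 and 0.307. The isoleucine gene AT4G10320 had the largest value of the 14, at 0.75, and did not pass (limma adjusted p = 0.0595). The members had 0.61 to 1.09, so the isoleucine and arginine genes lay within the members' range. Of the 14, 12 were positive and 2 negative. Over the 14 the median was 0.31, against 0.03 for all probe sets.

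**Figure D4:**
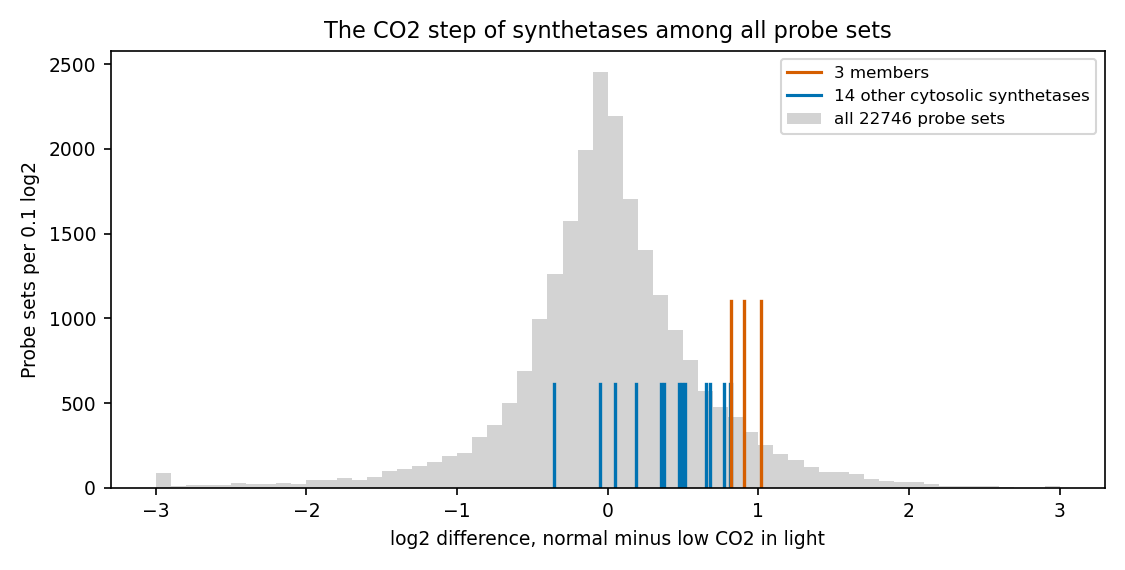
Number of probe sets (y axis, bins of 0.1) by log2 difference of normal minus low CO2 in light (x axis), over all 22746 probe sets, with 88 beyond 3 in either direction counted in the end bins; lines mark the 3 members (orange) and the 14 other cytosolic synthetases (blue). The members lie at 0.82 to 1.02 and the others from -0.36 to 0.82.

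Of 19 genes for organellar synthetases, 2 had a probe set of their own. AT4G33760 for aspartate read 62.2 and 79.7 in darkness, 75.7 and 74.5 in light at low CO2, then 137.7 and 162.5 at normal CO2. This gene had the level-then-high shape of the histidine member, and it rose by 0.93 ± 0.18 in the CO2 step (limma adjusted p = 0.0218), where 8.4% of all probe sets were called higher. AT3G58140 for phenylalanine had 0.57 ± 0.17 in the CO2 step (adjusted p = 0.0795) and was 0.86 ± 0.17 above darkness at normal CO2 (adjusted p = 0.0188). The call of AT4G33760 in the CO2 step ended when any one array of low or normal CO2 in light was left out. Against darkness both genes had passed, where 11.3% of all probe sets were called higher. Then 1 passed without normal CO2 in light A or low CO2 in darkness B, and 0 without normal CO2 in light B or low CO2 in darkness A.

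Genes that make the amino acids used by the members were measured in part. Of 11 genes of histidine synthesis 3 had a probe set of their own, of 9 of threonine synthesis 2, and of 10 of phenylalanine synthesis 0. AT-HF (AT4G26900), the imidazole glycerol phosphate synthase of histidine synthesis, rose in the CO2 step from 53.5 and 64 to 115.8 and 149.1 (1.08 ± 0.22, limma adjusted p = 0.0256). AT1G14810, an aspartate semialdehyde dehydrogenase on the path to threonine, rose from 260.7 and 358.7 to 647.6 and 875.6 (1.28 ± 0.27, adjusted p = 0.0287). AT1G72810, a threonine synthase gene, rose from 128.9 and 74.6 to 220.8 and 211.4 (1.08 ± 0.27, adjusted p = 0.0470). That last call ended without the trend (adjusted p = 0.0579), with the replicate letter as a block (0.0526), in a fit of 4 arrays (0.0562) and without either dark array (0.0568 and 0.0574). These were 3 of 5 measured genes, against 8.4% of all probe sets called higher. With dim probe sets filtered out there were again 3 of 5, against 1949 of 10201 probe sets. The other histidine genes, IGPD and HISN5B, had 0.22 and -0.16 and did not pass. In the light step 0 of these 5 passed by limma, with HISN5B at 0.78 (unadjusted p = 0.00366, adjusted p = 0.0973) the single one at an unadjusted p under 0.05. Over all probe sets these shares were 1.04% and 16.5%. The 3 calls of the CO2 step became 1 without low CO2 in light A. They became 0 without low CO2 in light B or either normal CO2 array.

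Downstream of the synthetases, elongation factor eEF1B recharges eEF1A, which carries the charged tRNA to the ribosome. Of 12 elongation factor genes 2 had a probe set of their own, both for eEF1B subunits, and 0 passed in either step by limma. Over all probe sets 1.04% were called in the light step, and 8.4% higher and 6.2% lower in the CO2 step. AT5G19510 read 1410.4 and 1511.1 in darkness, 978.4 and 1198.4 in light at low CO2, then 1425.7 and 1760.4 at normal CO2. Its CO2 step was 0.55 ± 0.18 (adjusted p = 0.0938, unadjusted p = 0.0204) and its light step -0.43 ± 0.18 (adjusted p = 0.303, unadjusted p = 0.0501). The CO2 step of AT5G19510 passed with dim probe sets filtered out (adjusted p = 0.0439) and with the replicate letter as a block (0.0427). AT5G12110 had 2.08 ± 0.98 in the CO2 step (adjusted p = 0.222, unadjusted p = 0.0769), since its replicates at low CO2 were far apart.

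RNA quality and markers of other cells were read beside these results. The 3 prime to 5 prime ratio of the ubiquitin control, a sign of RNA quality, was 1.69 and 1.95 on the normal CO2 arrays and 1.38 to 1.48 on the other 4. That of GAPDH was 0.949 and 1.08 against 1.02 to 1.13, and that of actin 2.16 and 2.60 against 1.97 to 2.84, so these ratios overlapped between the treatments. The part of the ubiquitin ratio in the CO2 step of the synthetases was not tested. Of 14 leaf mesophyll markers 2 were named: RCA (Rubisco activase) read 2891.4 to 3326.9 and SBPASE 1448.4 to 2154.8 over all arrays, as bright leaf genes, and neither passed in any comparison. Of 4 guard cell markers 1 was named, FMA, which encodes FAMA, a regulator of guard cell formation. It read 45 to 54.9 on the low CO2 arrays and 67.5 and 74.6 on the normal CO2 arrays (limma adjusted p = 0.166 in the CO2 step), and its part in the results was not tested. The lists of 5 flower, 4 root, 2 phloem and 5 dividing cell markers had 0 genes with a probe set of their own. In whole rosettes, fewer cells of a type and less RNA per cell cannot be told apart. Over all probe sets 1911 rose and 1410 fell in the CO2 step, and 1574 and 1742 with arrays shifted to a common median.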

How the data were processed

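The authors deposited 1 linear intensity per probe set and array, made with MAS5 per the submitters' processing notes. No source used here states its version, its scaling target or detection calls. The mean after trimming 2% at each end was 100.01 on every array, so no scaling was added. Median intensities were 34.6 to 39.55. Single-colour arrays carry no counts, so their number limits the precision. Of 22810 probe sets, 64 controls were left out. Names came from the platform annotation, matched by Entrez ID to the TAIR10.1 gene table for 13436 of 13513 probe sets with 1 symbol. Those with several (503) or none (8730) were not named.

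Group means of the 3 treatments were fitted to log2(intensity + 7.3) with limma 3.58.1 in R 4.3.3 (eBayes with trend, 3 residual and 3.27 prior degrees of freedom). Benjamini-Hochberg adjustment ran over 22746 probe sets, at a threshold of 0.05. The fit was also run on simulated data with added changes, and nothing on the reliability of the calls is read from that run. A gene "rose" or "fell" only where it passed. The members and lists were chosen with earlier results of these data known. All measured genes of the synthetase lists were named, and synthetases outside those lists were not searched for. From the lists of amino acid synthesis and elongation, genes past the threshold were named, or the 2 with the smallest p. The 5 nearest profiles were named too. IGPD and HISN5B were named after their values were seen. Promoter motifs were planned and not run, since no sequence was at hand. Alternatives were pseudocounts of 1 and 50, quantile normalization, a common median, a filter on mean intensity (50), no trend, the replicate letter as a block, fits of 4 arrays, and each array left out.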

Additional observations from a re-analysis of the deposited data

How the results depend on the processing

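The CO2 step of each member stayed positive under all alternatives tried, while the counts of calls changed when single arrays were left out. The members had been picked for a rise in this step, so its kept sign is no measure of reliability. The members' CO2 step ran from 0.88 to 1.15 (AT4G39280), 0.78 to 1.03 (AT5G26830) and 0.76 to 0.88 (AT3G02760) with 1 array left out. With a pseudocount of 50 it was 0.85, 0.67 and 0.65 by construction, and 0.75 for AT3G02760 with a common median. The light step of AT4G39280 ran from -0.07 to 0.21 with 1 array left out and that of AT5G26830 from -0.42 to -0.17. That of AT3G02760 was 0.11 with quantile normalization and 0.033 with a common median. At normal CO2 against darkness AT4G39280 had 1.12 with a pseudocount of 1, 0.91 with 50, 1.14 with quantile normalization and 0.99 with a common median. AT5G26830 had 0.64, 0.46, 0.62 and 0.51 in that order, and AT3G02760 0.69 with a pseudocount of 50 and 0.78 with a common median.

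The 4 calls among the other cytosolic synthetases in the CO2 step were 3 to 6 under the alternatives that kept all arrays and 0 to 5 with 1 left out. Against darkness the 1 call was 0 with a common median, 2 with the dim filter, 2 with the replicate block, and 0 to 1 with 1 array left out. The organellar counts ran from 0 to 1 in the CO2 step and 0 to 2 against darkness with 1 left out. Those of histidine and threonine synthesis ran from 0 to 2 and 0 to 4, and against darkness were 1 with a common median and 1 without the trend, where the main count was 3.

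Over all probe sets the light step had 193 higher and 44 lower. It had 119 and 29 with a pseudocount of 50, 432 and 261 with the dim filter, 91 and 14 without the trend, 0 and 0 in a fit of 4 arrays, and 0 to 88 and 0 to 11 with 1 array left out. There were 90 lower with a pseudocount of 1 and 70 with a common median. Against 1911 and 1410, the CO2 step had 0 to 1506 higher and 0 to 1239 lower with 1 array left out, with 567 and 646 without low CO2 in light B. Against darkness (2578 and 2077) the ranges were 263 to 2557 and 313 to 2138. With the replicate letter as a block the light step had 338 and 137 and the CO2 step 2273 and 1687. The A minus B deviations of the groups correlated at 0.31, 0.16 and 0.02, so over all probe sets the letters paired the arrays weakly. The spike-in control BioC, however, split by letter in all 3 treatments. Its 3 prime probe set read 22.9, 25 and 29.1 on the A arrays and 58.7, 62.6 and 67.7 on the B arrays. Its 5 prime probe set read 46.6 to 54.2 on A and 85.6 to 112.1 on B. Whether the letters mark a shared batch is not stated by the labels and was not tested.

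Beside the light step of AT4G39280, which was not tested, 3 tested values of single genes changed sign, each short of the threshold. In the CO2 step, with 1 array left out, that of ALATS (AT1G50200) ran from -0.11 to 0.0071, that of AT4G13780 from -0.0037 to 0.098 (and -0.027 with a common median) and that of HISN5B (AT4G14910) from -0.35 to 0.028. Of the other 484 values of single genes under an alternative, 429 kept their side of the threshold, 47 lost a call and 8 gained one. The causes were not tested.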

Other observations

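AT5G12110, an eEF1B subunit gene, read 46.1 in darkness A and 71 at low CO2 in light A, but 5.8 and 4.3 on the corresponding arrays of replicate B. At normal CO2 it read 112.7 and 127.7. The CO2 step was thus 0.62 between the arrays of A and 3.54 between those of B.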
